A study of Mus musculus with 20 samples.

Results

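Livers that lacked both Cpt2 and Ppara were compared with livers that lacked Cpt2 alone, across all genes counted by RNA sequencing. The comparison took 8 of the 20 libraries of the series, chosen by their labelled genotype. The 4 libraries called Cpt2PparaDKO carry the label "PPAR;CPT2" liver-specific double knockout, and the series' own description names the genes as Cpt2 and Ppara. The 4 libraries called Cpt2KO are labelled as liver-specific knockouts of Cpt2, so both groups carry a Cpt2 knockout by their labels. The 4 Control libraries are labelled triple floxed for CPT1A, CPT1B and CPT2, with no Ppara allele named, came from littermates, per the series' description, and are used below only to place levels. All mice were fasted for 24 h before the livers were taken. The labels name no Cre driver, age or sex. Nor do they tie the 4 libraries to 4 separate animals, and the p-values below therefore rest on the spread among libraries, which may be partly technical. No group lacked Ppara alone, and the effect of Ppara loss in a liver with intact Cpt2 cannot be given.

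CPT2 is the inner mitochondrial enzyme that turns long-chain acylcarnitines back into acyl-CoA, so that they can enter beta-oxidation. PPARalpha is a nuclear receptor that binds DNA as a heterodimer with RXR and is activated by fatty acids and their derivatives. In the fasted liver it is known for raising the genes of fatty acid uptake, mitochondrial and peroxisomal oxidation, omega-oxidation and ketone body synthesis, and the hormone gene Fgf21.

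Levels are given as CPM, each count relative to its library size after TMM scaling (a normalization to the bulk of genes), in the order of replicates 1 to 4. Total counts ran from 14129595 to 36452673 over the 20 libraries, with the highest total in Cpt2PparaDKO replicate 1. Cpt2PparaDKO replicate 4 stood apart from its group. Its mean Pearson correlation with the other 3 libraries, across genes on the log2 CPM scale, was 0.960, against 0.978 to 0.981 for each of those 3. It also had a female pattern, with 32612 Xist counts and 0 counts over 4 Y-linked genes, as did Cpt2KO replicate 3 with 18063 Xist counts and 2 Y-linked counts. The other 18 libraries had a male pattern, so that each group compared here held 1 library of the female pattern. Of the 12 hepatocyte markers, 2 were called higher and 5 lower, and their summed level was 36314 to 41242 CPM in Cpt2PparaDKO against 46913 to 77619.9 CPM in Cpt2KO, so both groups expressed the markers of the labelled tissue. In bulk tissue, a different number of cells of a type and a different amount of RNA per cell cannot be told apart. With 1 library left out, 3 to 5 of these markers were lower.

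The targeted gene separated the groups. Ppara (chromosome 15, 85619184 to 85687020, plus strand, GRCm39) had 75.7, 83.3, 79.4 and 54.3 CPM in Cpt2PparaDKO, against 333, 175, 344 and 217 CPM in Cpt2KO (log2 fold change -1.87, SE 0.24, adjusted p = 1.02e-05). All 4 Cpt2PparaDKO libraries lay below all 4 Cpt2KO libraries, and counts remained in every one. The files give 1 count per gene, so a deleted part of the gene cannot be told apart from the rest. Cpt2 (chromosome 4, 107761178 to 107780807, minus strand) was also lower in the double knockout, at 31.4, 39.1, 36.8 and 28.5 CPM in Cpt2PparaDKO, against 116, 165, 114 and 130.5 CPM in Cpt2KO (log2 fold change -1.95, SE 0.19, adjusted p = 1.39e-07). The Cpt2 ranges did not overlap either, so the 2 groups differed in the level of both targeted genes. In Control, Ppara had 189, 198, 269 and 277 CPM and Cpt2 had 211, 267, 254 and 266 CPM. All 4 Cpt2KO libraries lay between the other groups for Cpt2.

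Of 15669 genes tested, 3822 (24.4%) differed between Cpt2PparaDKO and Cpt2KO at an adjusted p under 0.05, 1903 higher (12.1%) and 1919 lower (12.2%). Changes of at least 1 on the log2 scale were found for 988 genes that rose and 704 that fell. The median log2 fold change over all genes tested was 0.01. These shares are the background for every count of list members below. Scaling by library size alone, in place of TMM, raised the median of all genes by 0.27 and gave 4164 genes higher and 997 lower, 80.7% of calls higher against 49.8% under TMM. TMM factors were 1.17 to 1.29 in Cpt2PparaDKO and 0.967 to 1.02 in Cpt2KO. Fitted without Cpt2PparaDKO replicate 4, the comparison gave 4075 calls, 3317 of them shared, and without both libraries of the female pattern it gave 4128 calls, 3162 of them shared.

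**Figure D1:**
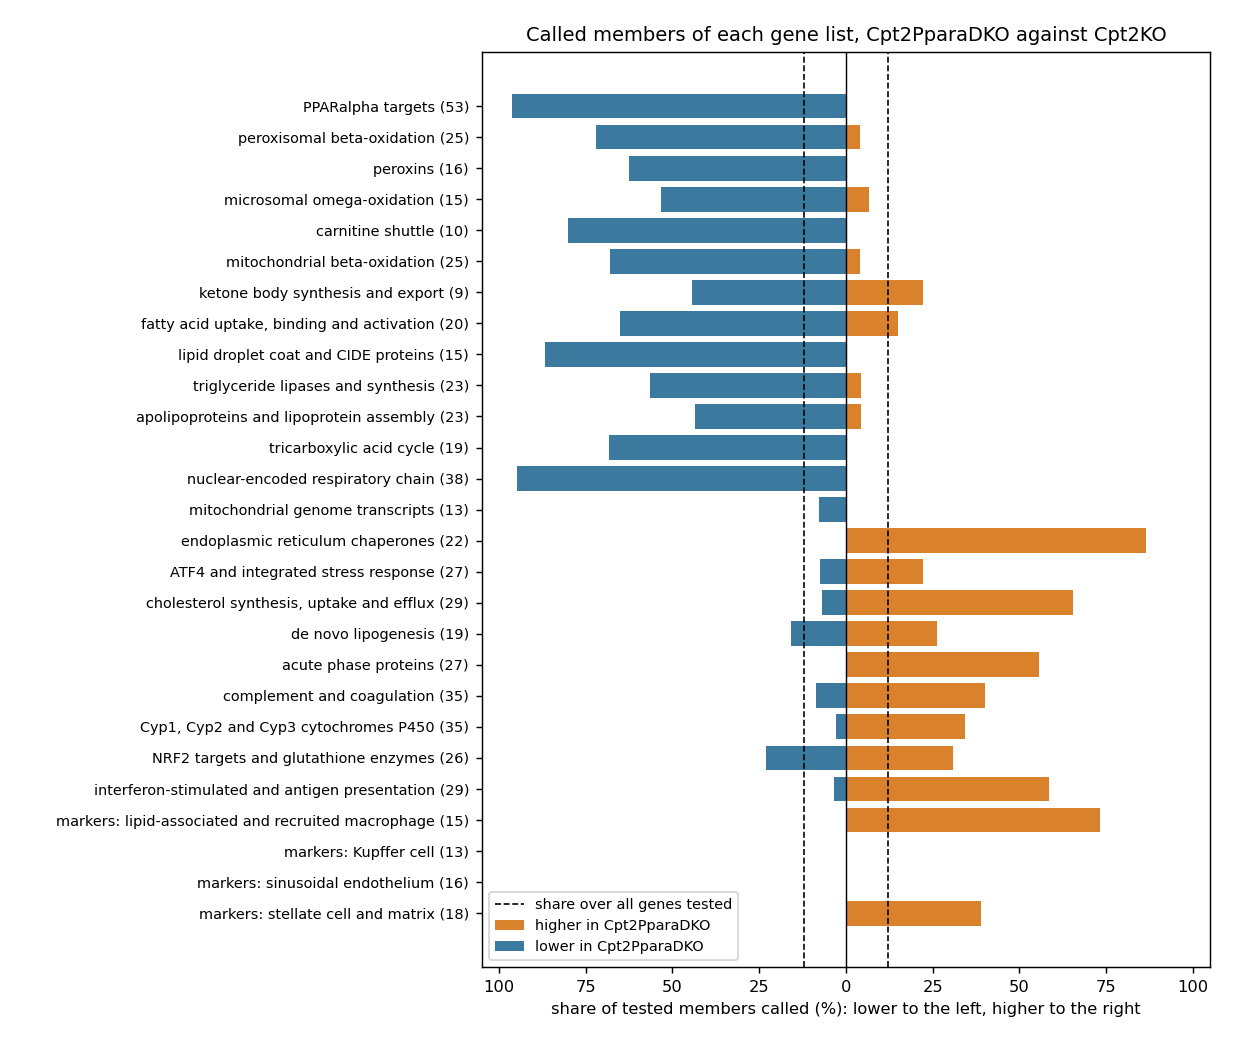
Share of the tested members of each gene list that were called lower (left) or higher (right) in Cpt2PparaDKO against Cpt2KO, with the number of members tested in brackets. Dashed lines mark the shares over all genes tested, 12.2% lower and 12.1% higher; PPARalpha targets and respiratory chain genes fill the left side and endoplasmic reticulum chaperones the right.

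Nearly the whole list of known PPARalpha target genes was lower in the double knockout. Of 53 targets tested, 51 fell and 0 rose, with a median log2 fold change of -2.36. The members not called were Scp2, a peroxisomal thiolase and lipid carrier (-0.61, adjusted p = 0.104), and Acot5, a thioesterase near the detection floor (-0.51, adjusted p = 0.76). Without Cpt2PparaDKO replicate 4 Acot5 was at -4.92 and passed the test (adjusted p = 0.00101), and Scp2 passed it with the sex pattern as a factor (adjusted p = 0.00436) and without both libraries of the female pattern (adjusted p = 0.0355). All 4 Cpt2PparaDKO libraries lay below all 4 Cpt2KO libraries for 49 targets, against 11.2% of all genes. With any 1 library left out, 50 or 51 targets were lower, and scaling by library size alone gave 51.

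One target, Fabp1, carried a PPARalpha-type motif in its RefSeq promoter window, and its sequence is shown for that reason. The motif searched was AGGNCANAGGNCA, a pair of half-sites 1 base apart, on both strands, in windows of 300 bases from 250 before to 50 after the start site (RefSeq, GRCm38.p6). It stood in 1 of the 41 targets that had a window, in 0.381% of all 32851 windows and in 0.354% of the genes tested. The stretch below is chr6:71199762-71199864 on the plus strand, with the match in capitals, read on the minus strand of the promoter, first base 67 bases before the start site. No match says only that these letters are not in the window.
Fabp1: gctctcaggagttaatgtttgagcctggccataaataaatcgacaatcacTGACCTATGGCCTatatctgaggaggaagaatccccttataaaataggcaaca

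Fabp1, the liver fatty acid binding protein that carries fatty acids through the cytosol, had 303, 423, 585 and 228 CPM in Cpt2PparaDKO, against 2239, 3412, 2426 and 1627 CPM in Cpt2KO (log2 fold change -2.66, SE 0.30, adjusted p = 1.27e-06). The lowest Cpt2KO library was above the highest Cpt2PparaDKO library. Of 20 genes of fatty acid uptake, binding and activation, 13 fell and 3 rose, with a median of -1.41. Acsl1, the main long-chain acyl-CoA synthetase of liver, had 373, 346, 325 and 115 CPM in Cpt2PparaDKO, against 2979.7, 1766, 1743 and 1785 CPM in Cpt2KO (log2 fold change -2.84, SE 0.33, adjusted p = 2.4e-06). Slc27a1, a fatty acid transporter and acyl-CoA synthetase, fell by 3.80 on the log2 scale, and Cd36, a scavenger receptor that takes up fatty acids, fell by 2.03. Fabp3, the fatty acid binding protein of heart, was the largest named fall. It had 0.0471, 0.0446, 0.0935 and 0 CPM in Cpt2PparaDKO, against 26.3, 13, 28.2 and 13.6 CPM in Cpt2KO (adjusted p = 8.52e-07). In Control it averaged 0.107 CPM, so its level was also near the floor there. The 4 double-knockout libraries held 5 counts in all against 1388, a level of 0.223% of Cpt2KO (95% exact interval 0.0722% to 0.521%, counting error only), so its fitted log2 fold change of -8.63 depends on the prior count. The 3 members that rose were Fabp5 (1.18), the epidermal fatty acid binding protein, Acsm1 (1.33), a medium-chain acyl-CoA synthetase, and Acsl4 (0.54), an arachidonate-preferring acyl-CoA synthetase whose call was lost in 5 fits with 1 library left out (adjusted p = 0.056 to 0.126).

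Most genes of the carnitine shuttle fell. Of 10 members tested, 8 fell and 0 rose, with a median of -1.63. Slc25a20, the carnitine-acylcarnitine carrier of the inner membrane, had 55.9, 59.9, 58.8 and 47 CPM in Cpt2PparaDKO, against 257, 317, 331 and 229 CPM in Cpt2KO (log2 fold change -2.36, SE 0.14, adjusted p = 6.41e-11). Slc22a5, which brings carnitine into the cell, fell by 2.36 and Crat, a carnitine acetyltransferase, fell by 2.77 on the log2 scale. Cpt1a, the liver form of the outer-membrane enzyme, had 1011, 962, 919.9 and 468 CPM in Cpt2PparaDKO, against 1452, 1276, 1619 and 1188 CPM in Cpt2KO (log2 fold change -0.72, SE 0.18, adjusted p = 0.00527). Its groups did not overlap, with replicate 4 lowest by far in the double knockout. Its adjusted p was 0.0622 when only the 8 libraries were fitted. Cpt1b, the muscle form, stood at 0.58 ± 0.2 CPM in Cpt2PparaDKO and 3.91 ± 1.74 CPM in Cpt2KO (SD, n = 4 each; log2 fold change -2.75, SE 0.36, adjusted p = 8.47e-06).

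Most genes of mitochondrial beta-oxidation fell. Of 25 genes, 17 fell and 1 rose, with a median of -1.46, and 25 had all 4 Cpt2PparaDKO libraries below all 4 Control libraries, against 19.3% of all genes tested. These 25 include the 7 members not called against Cpt2KO and the 1 that rose. The list's median log2 difference from Control was -1.28 in Cpt2PparaDKO and 0.03 in Cpt2KO. Hadha, the alpha subunit of the trifunctional protein for long chains, had 225, 233, 236 and 203 CPM in Cpt2PparaDKO, against 1040.2, 1188, 1202 and 833 CPM in Cpt2KO (log2 fold change -2.25, SE 0.14, adjusted p = 2.64e-10). Its beta subunit Hadhb fell by 2.13, the very-long-chain dehydrogenase Acadvl fell by 1.96, and the long-chain dehydrogenase Acadl fell by 1.39. Etfdh, which passes electrons from these dehydrogenases to ubiquinone, fell by 2.32, and Eci2, an enoyl-CoA isomerase, fell by 2.58. These 5 genes had no overlap between the groups. The member that rose was Acadsb, a dehydrogenase of branched short chains (0.55, adjusted p = 0.0279), which lost its call in 5 of the 8 fits with 1 library left out.

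Part of ketone body synthesis and export fell. Acat1, the mitochondrial thiolase, had 220.4, 228, 227 and 102 CPM in Cpt2PparaDKO, against 522, 595, 609.5 and 634 CPM in Cpt2KO (log2 fold change -1.60, SE 0.21, adjusted p = 6.88e-06). The groups did not overlap, and replicate 4 was below the other 3 double-knockout libraries. The monocarboxylate exporter Slc16a1 fell by 0.89 on the log2 scale. Bdh1, the dehydrogenase that makes beta-hydroxybutyrate, was not called (-0.44, adjusted p = 0.428). Among the 9 members, 4 fell and 2 rose. Those that rose were Oxct1 (1.43), the ketolytic transferase that hepatocytes largely lack, and Bdh2 (1.80), a cytosolic dehydrogenase.

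Most genes of peroxisomal beta-oxidation fell. Ehhadh (chromosome 16, 21580037 to 21606557, minus strand), the bifunctional enzyme of the inducible pathway, had 188, 257, 299.8 and 263 CPM in Cpt2PparaDKO, against 13216, 11695, 9884 and 10315 CPM in Cpt2KO (log2 fold change -5.48, SE 0.26, adjusted p = 3.82e-12). The double-knockout mean was 2.23% of the Cpt2KO mean. The groups did not overlap. Hsd17b4, the second bifunctional enzyme, fell by 2.39, the acyl-CoA importer Abcd3 fell by 2.44, and the dienoyl-CoA reductase Decr2 fell by 2.79 on the log2 scale. Of 25 genes 18 fell and 1 rose, with a median of -2.06. The member that rose was Acox2, the oxidase of bile acid intermediates (0.46, adjusted p = 0.0283), which lost its call without Cpt2PparaDKO replicate 1 or 4 or Cpt2KO replicate 1 or 2. Of 16 peroxins, which build the organelle, 10 fell and 0 rose. Pex11a, which drives peroxisome division, had 135, 127, 78.3 and 111 CPM in Cpt2PparaDKO, against 804, 829.8, 990.5 and 837 CPM in Cpt2KO (log2 fold change -2.94, SE 0.17, adjusted p = 7.54e-11). Pex16, which recruits membrane proteins, fell by 1.68.

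Omega-oxidation, which starts from the methyl end of fatty acids in the endoplasmic reticulum, had its largest falls in the Cyp4a family. Cyp4a14 had 276, 464, 590.3 and 453 CPM in Cpt2PparaDKO, against 14518, 14487, 16107 and 12270.5 CPM in Cpt2KO (log2 fold change -5.01, SE 0.23, adjusted p = 3.82e-12). Cyp4a10 had 222, 261, 199 and 227 CPM in Cpt2PparaDKO, against 5315, 5783, 5279 and 4737 CPM in Cpt2KO (log2 fold change -4.54, SE 0.19, adjusted p = 2.03e-12), and Cyp4a32 fell by 4.84. Every double-knockout library lay more than an order of magnitude below every Cpt2KO library for these 3 genes. The Cyp4a genes are near-identical copies, and the sources used here do not say how shared reads were counted, so the split among them is uncertain. In the whole list of 15 genes, 8 fell and 1 rose, Cyp4f14, a hydroxylase of eicosanoids (1.23, adjusted p = 0.0021).

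Acyl-CoA thioesterases, which release free fatty acids from CoA, gave 8 falls and 1 rise among 13 genes. Acot1, the cytosolic form, had 71.7, 89.9, 106 and 55.5 CPM in Cpt2PparaDKO, against 1242, 2004, 1692 and 1036 CPM in Cpt2KO (log2 fold change -4.21, SE 0.23, adjusted p = 2.88e-11). Acot2, the mitochondrial form, fell by 2.60, and Acot3, a peroxisomal form, fell by 4.67; these 3 are close paralogs whose reads may be shared. Acot11, which also binds lipids through a START domain, rose by 1.67 (adjusted p = 0.00937) and lost its call without both libraries of the female pattern (adjusted p = 0.0564). Vnn1, the pantetheinase that recycles the CoA precursor, had 12.1, 13.5, 6.45 and 7.45 CPM in Cpt2PparaDKO, against 253, 177, 243 and 115 CPM in Cpt2KO (log2 fold change -4.31, SE 0.31, adjusted p = 6.87e-09).

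Several genes of pyruvate entry into mitochondria fell. Pdk4, the kinase that shuts off pyruvate dehydrogenase, had 49.5, 38.2, 21.8 and 53.6 CPM in Cpt2PparaDKO, against 848, 729, 969.9 and 531 CPM in Cpt2KO (log2 fold change -4.24, SE 0.50, adjusted p = 8.78e-06). The groups did not overlap. Pdp2, the opposing phosphatase, fell by 2.11 on the log2 scale, and the pyruvate carrier subunit Mpc1 fell by 0.90 and its partner Mpc2 fell by 1.15. Of 15 genes 8 fell and 0 rose, and 5 fell under scaling by library size alone.

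**Figure D2:**
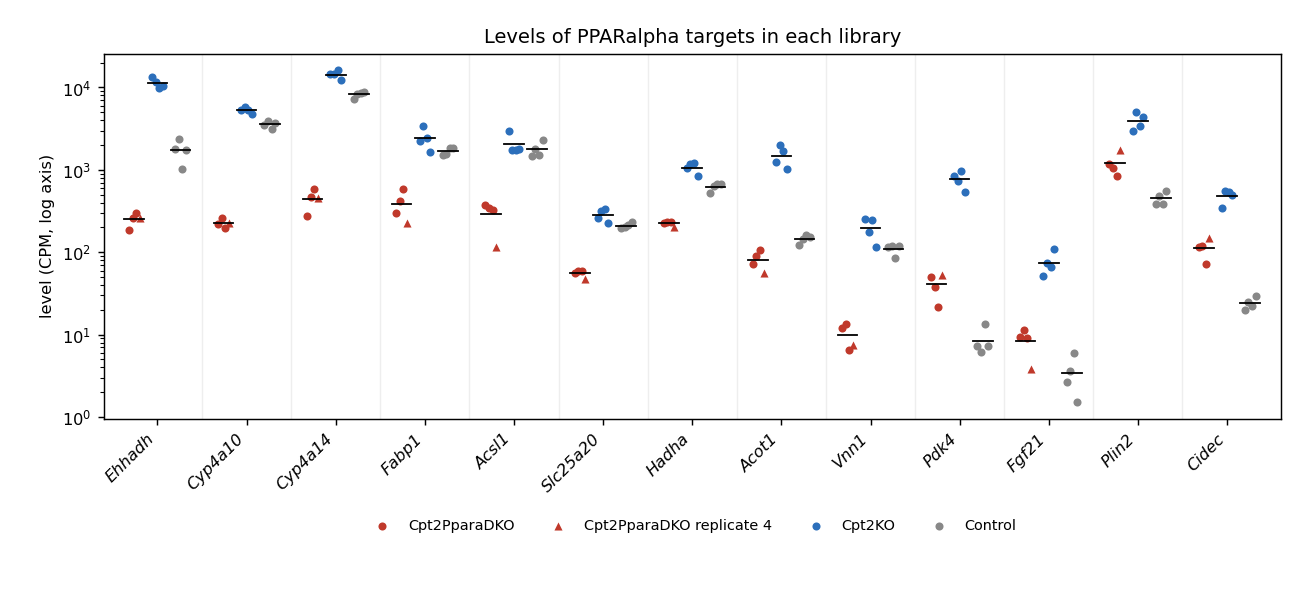
Level in each library (CPM, log axis) of 13 PPARalpha targets in Cpt2PparaDKO (left), Cpt2KO (middle) and Control (right), with the group mean as a line and Cpt2PparaDKO replicate 4 as a triangle. For all 13 genes the Cpt2PparaDKO libraries lie below the Cpt2KO libraries; for Pdk4, Plin2 and Cidec they lie above Control.

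The fall did not bring all targets to the same place relative to Control. For 40 of the 53 targets all 4 Cpt2PparaDKO libraries lay below all 4 Control libraries, against 19.3% of all genes tested. For 5 targets they lay above all 4 Control libraries, against 15.8% of all genes, and 8 overlapped. Both mutant groups are set against the same Control libraries here, and Cpt2KO also served in the comparison above. Ehhadh averaged 252 ± 46.7 CPM in Cpt2PparaDKO, 11278 ± 1506 in Cpt2KO and 1741 ± 550.2 in Control (SD, n = 4 each). Cyp4a14 averaged 446 ± 129 CPM in Cpt2PparaDKO, 14346 ± 1577 in Cpt2KO and 8249 ± 696 in Control, so its double-knockout level was 0.0541 times Control. The targets that stayed above Control without overlap were Pdk4, Acot2, Plin2, Cidec and Cd36. Fgf21 had a mean 2.43 times that of Control, with overlapping libraries. Pdk4 averaged 40.8 ± 14.2 CPM in Cpt2PparaDKO, 769.7 ± 187 in Cpt2KO and 8.47 ± 3.32 in Control. Plin2 averaged 1208 ± 382 CPM in Cpt2PparaDKO, 3933 ± 910.5 in Cpt2KO and 455 ± 81.9 in Control. Plin2 and Cidec are lipid droplet proteins, whose list is described next.

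**Figure D3:**
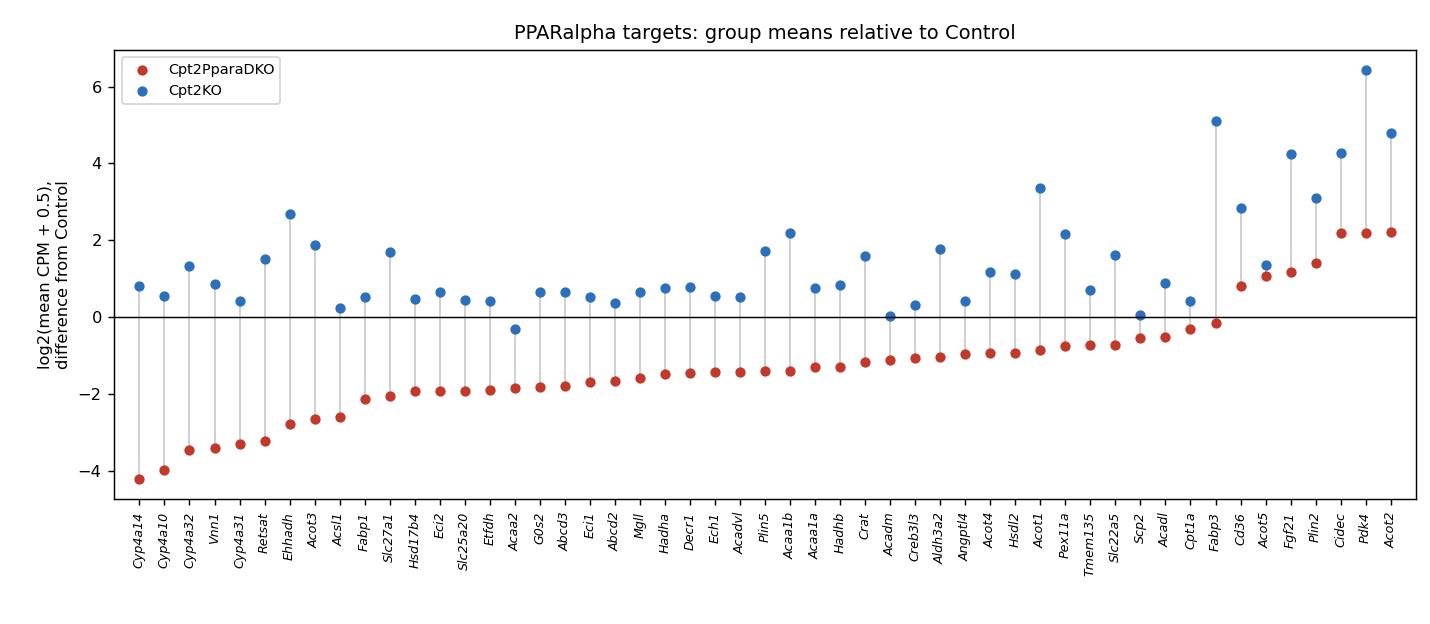
Difference of the group mean from the Control mean, as log2(mean CPM + 0.5), for 51 of the 53 PPARalpha targets in Cpt2PparaDKO and Cpt2KO, ordered by the Cpt2PparaDKO value. Most Cpt2PparaDKO points lie below 0 (the Control level), while Pdk4, Acot2, Cidec, Plin2 and Cd36 stay above it. The points of Fgf21 and Acot5 also lie above 0, though their libraries overlapped with Control.

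Genes of lipid droplets fell as a group. Of 15 coat and droplet proteins, 13 fell and 0 rose, with a median of -2.05. With 1 library left out 11 or 12 fell. Plin2, the main coat protein of hepatocyte droplets, had 1190.0, 1062, 841 and 1739 CPM in Cpt2PparaDKO, against 3003, 4982, 3366 and 4382 CPM in Cpt2KO (log2 fold change -1.70, SE 0.23, adjusted p = 9.48e-06). Cidec, which fuses droplets into larger ones, had 115, 119, 71.3 and 147 CPM in Cpt2PparaDKO, against 340.0, 549, 536 and 494 CPM in Cpt2KO (log2 fold change -2.09, SE 0.21, adjusted p = 2.1e-07). Plin5, which ties droplets to mitochondria, had 31.7, 37.2, 45.3 and 38 CPM in Cpt2PparaDKO, against 213, 403, 403 and 337 CPM in Cpt2KO (log2 fold change -3.16, SE 0.25, adjusted p = 8.46e-09). None of the 3 overlapped between the groups. Hsd17b11, a droplet-bound dehydrogenase, fell by 3.64, Fitm2, which takes part in droplet budding, fell by 2.23, and Plin4, another coat protein, fell by 2.07, a call lost without both libraries of the female pattern (adjusted p = 0.0543). The members not called were Plin3, a coat protein found in many tissues, at 115 ± 15.2 CPM in Cpt2PparaDKO and 109.7 ± 25.2 in Cpt2KO (SD, n = 4 each; adjusted p = 0.805), and Abhd5, the lipase co-activator, at 29.2 ± 2.32 CPM in Cpt2PparaDKO and 28.5 ± 3.32 in Cpt2KO (adjusted p = 0.873).

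Both lipases and synthetic enzymes of triglyceride fell. Of 23 genes 13 fell and 1 rose. Pnpla2, the adipose triglyceride lipase, had 139, 138, 124 and 154 CPM in Cpt2PparaDKO, against 548, 830.1, 638 and 497 CPM in Cpt2KO (log2 fold change -2.18, SE 0.16, adjusted p = 2.4e-09). Gpam, the first acyltransferase of glycerolipid synthesis, fell by 1.54, and Mogat1, a monoacylglycerol acyltransferase, fell by 4.53. Lpl, lipoprotein lipase, was the one that rose, with 41, 39.8, 46.9 and 28.3 CPM in Cpt2PparaDKO, against 19.8, 12.9, 11.2 and 12.7 CPM in Cpt2KO (log2 fold change 1.46, SE 0.29, adjusted p = 0.00124). Lpl is also expressed by macrophages, whose markers are given below. Among 23 genes of lipoproteins 10 fell and 1 rose, Tm6sf2, a gene of lipoprotein lipidation (0.70). Mttp, the transfer protein that loads lipid onto apolipoprotein B, had 232, 212, 184 and 191 CPM in Cpt2PparaDKO, against 561, 578, 680.4 and 694 CPM in Cpt2KO (log2 fold change -1.62, SE 0.13, adjusted p = 6.75e-09). Apoa4, an apolipoprotein made when liver exports triglyceride, had 3877, 3911, 3114 and 1919.9 CPM in Cpt2PparaDKO, against 9049.7, 17324, 7883 and 14912 CPM in Cpt2KO (log2 fold change -1.94, SE 0.33, adjusted p = 0.000224), and stayed above Control at 656 ± 279 CPM. Neither overlapped between the 2 mutant groups.

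Hormone genes split. Fgf21, the fasting hormone of the liver, had 9.36, 11.3, 9.07 and 3.84 CPM in Cpt2PparaDKO, against 52.2, 73.8, 65.6 and 108 CPM in Cpt2KO (log2 fold change -3.16, SE 0.51, adjusted p = 0.000275). The groups did not overlap. Lepr, the leptin receptor, had 9.18, 17.1, 39.1 and 16.7 CPM in Cpt2PparaDKO, against 236, 233, 239 and 88.8 CPM in Cpt2KO (log2 fold change -3.28, SE 0.66, adjusted p = 0.00169). Igfbp2, a binding protein of insulin-like growth factors, fell by 2.31, its relative Igfbp3 fell by 1.02, Inhbe, the activin E subunit, fell by 1.66, and Angptl4, an inhibitor of lipoprotein lipase, fell by 1.36. Igfbp3 lost its call without Cpt2PparaDKO replicate 1 or 4 (adjusted p = 0.0622 and 0.0568), and Inhbe when only the 8 libraries were fitted (adjusted p = 0.0676). Gdf15, a hormone of cellular stress, had 35.2, 34.1, 24 and 25.2 CPM in Cpt2PparaDKO, against 54.5, 58.2, 70.5 and 40.5 CPM in Cpt2KO. It did not pass the test in the fit of all 20 libraries (log2 fold change -0.92, adjusted p = 0.131), although no library of the groups overlapped, and it did when only the 8 libraries were fitted (adjusted p = 0.00811). Igfbp1 was not called (0.55, adjusted p = 0.6). The 5 that rose among 23 were Ahsg, the secreted glycoprotein fetuin-A (1.32), Lect2 (1.58), a hepatokine, Enho (1.72), which encodes adropin, Inhba (1.32), an activin subunit, and Manf (2.37), an endoplasmic reticulum stress protein; 6 fell.

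Among 42 nuclear receptors and coactivators 5 rose (11.9%, against 12.1% of all genes) and 10 fell (23.8%, against 12.2%). Under scaling by library size alone the balance turned, with 10 higher and 6 lower and a list median of 0.13, against -0.13 under TMM, and the fit of the 8 libraries gave 3 higher and 6 lower. Pparg, the adipocyte-type receptor of the family, had 35.5, 36.3, 28.8 and 44.9 CPM in Cpt2PparaDKO, against 22.9, 22.7, 21.3 and 26.2 CPM in Cpt2KO (log2 fold change 0.64, SE 0.17, adjusted p = 0.0091). The groups did not overlap, and the call was lost without both libraries of the female pattern (adjusted p = 0.0536). On a per-length scale, the deposited FPKM, Ppara averaged 18.9 ± 3.37 in Cpt2PparaDKO and 69.1 ± 21.5 in Cpt2KO, and Pparg 12.2 ± 2.18 in Cpt2PparaDKO and 7.85 ± 0.720 in Cpt2KO (SD, n = 4 each). Ppard, the broadly expressed member, was at 1.70 ± 0.353 FPKM in Cpt2PparaDKO and 1.83 ± 0.474 FPKM in Cpt2KO and was not called (log2 fold change -0.11, adjusted p = 0.717). Of 13 genes linked to PPARgamma or typical of adipocytes, 9 fell and 3 rose, namely Pparg, Lpl and Fabp5. Ucp3, a mitochondrial carrier of that list, fell by 5.57. It averaged 0.0282 FPKM in Cpt2PparaDKO, 1.35 in Cpt2KO and 0.0400 in Control. The xenobiotic receptor Nr1i2 (PXR) fell by 1.11, its relative Nr1i3 (CAR) fell by 1.41, and Esrrg, an orphan receptor of oxidative metabolism, fell by 3.75. Hnf4a, a master regulator of hepatocytes, fell by 0.44 (adjusted p = 0.0306), a call lost in 10 alternatives. Rxra, the partner of PPARalpha, was not called, at 401 ± 72.7 CPM in Cpt2PparaDKO and 496 ± 80.1 CPM in Cpt2KO.

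Nuclear genes of the respiratory chain fell by small and similar amounts. Of 38 subunits 36 fell and 0 rose, with a median of -0.61. All 4 Cpt2PparaDKO libraries lay below all 4 Cpt2KO libraries for 34, against 11.2% of all genes tested, a count made under TMM only. With 1 library left out 35 to 37 fell, and under scaling by library size alone 25 fell, with a median of -0.33. Cyc1, of complex III, had 154, 165, 174 and 136 CPM in Cpt2PparaDKO, against 259, 347, 275 and 261 CPM in Cpt2KO (log2 fold change -0.86, SE 0.12, adjusted p = 2.81e-05). Atp5a1, the alpha subunit of ATP synthase, had 736, 734, 779.6 and 659 CPM in Cpt2PparaDKO, against 1168, 1361, 1365 and 1257 CPM in Cpt2KO (log2 fold change -0.82, SE 0.12, adjusted p = 4.04e-05). Ndufs7 of complex I fell by 0.78, Uqcrc1 of complex III fell by 0.64 and Cox5a of complex IV fell by 0.77. The subunits not called were Ndufs8 (-0.26, adjusted p = 0.153) and Cox7a2 (-0.21, adjusted p = 0.406), and both turned positive under scaling by library size alone. Of 19 genes of the tricarboxylic acid cycle, 13 fell and 0 rose, and 5 fell under library size scaling.

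Transcripts of the mitochondrial genome, which encode other subunits of the same complexes, gave a single call. Of 13, 1 fell and 0 rose, and their median of -0.26 became 0.00 under scaling by library size alone. The one that fell was mt-Nd1, of complex I, with 4563, 5124, 5009 and 3348 CPM in Cpt2PparaDKO, against 5852, 5908, 6177 and 7744 CPM in Cpt2KO (log2 fold change -0.51, SE 0.15, adjusted p = 0.017). Its call was lost without Cpt2KO replicate 4 (adjusted p = 0.0638) and under scaling by library size alone (adjusted p = 0.197). mt-Co1, of complex IV, was not called (-0.22, adjusted p = 0.331) and turned positive under that scaling. Their summed level was 33536 to 51356 CPM in Cpt2PparaDKO against 44710.2 to 57794 CPM in Cpt2KO.

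**Figure D4:**
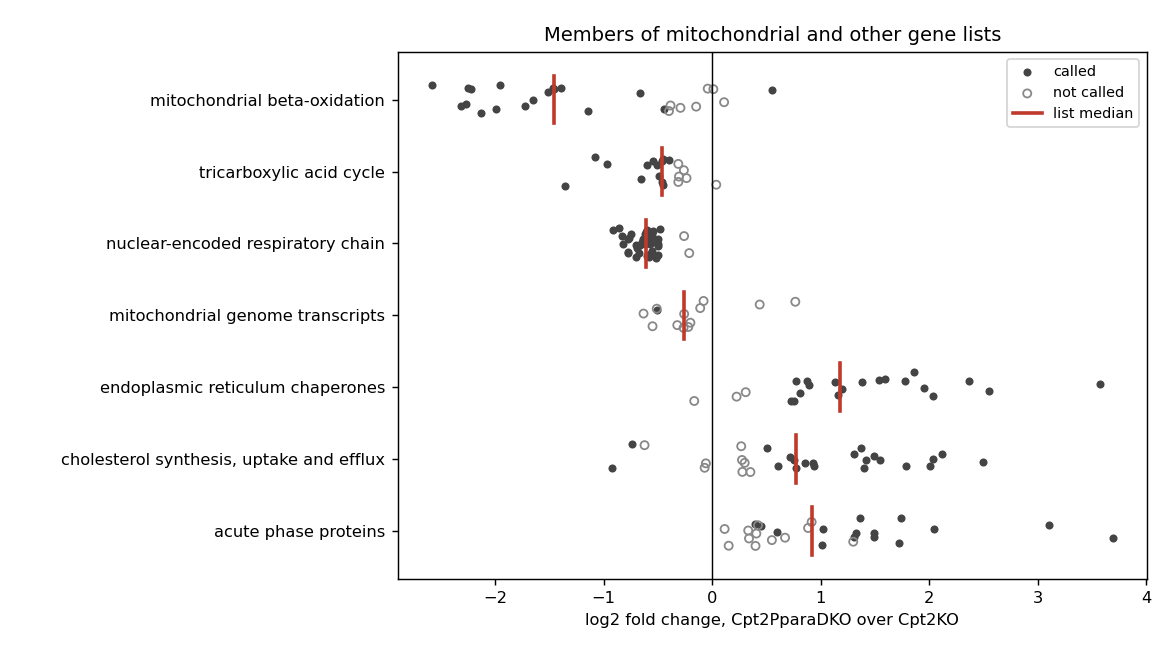
Log2 fold change of each tested member of 7 gene lists, Cpt2PparaDKO over Cpt2KO, with called members filled and list medians in red. Respiratory chain subunits cluster near -0.61, transcripts of the mitochondrial genome spread around -0.26, and endoplasmic reticulum chaperones lie mostly above 0 with a median of 1.18.

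Chaperones of the endoplasmic reticulum, which fold secreted proteins and are raised by the unfolded protein response, were higher in the double knockout. Of 22 genes 19 rose and 0 fell, with a median of 1.18, and with 1 library left out 18 or 19 rose. The promoter stretches below show the endoplasmic reticulum stress element, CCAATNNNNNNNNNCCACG, on which ATF6 acts, in 4 of the genes that rose. This motif was chosen after the values of the list were seen. It stood, on either strand, in the 300-base windows of 8 of the 19 chaperone genes that had one, in 0.119% of all windows, and among the genes tested in 0.2%, with 0.928% of those called higher and 0.141% of those called lower. The 0.928% is 13 of 1401 genes, and these 13 include the 8 chaperone genes, all called higher. That share is therefore not separate from the list. The capitals mark the match, and coordinates are GRCm38.p6, RefSeq, in the direction of the gene. Pdia6 is chr12:17266471-17266529 on the plus strand, Dnajc3 chr14:118937807-118937865 on the plus strand, Hspa5 chr2:34772005-34772063 on the plus strand and Calr chr8:84847055-84847113 on the minus strand, where the match reads on the opposite strand of the promoter.
Pdia6: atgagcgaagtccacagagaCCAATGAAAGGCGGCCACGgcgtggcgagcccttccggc
Dnajc3: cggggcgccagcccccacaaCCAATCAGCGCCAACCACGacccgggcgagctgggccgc
Hspa5: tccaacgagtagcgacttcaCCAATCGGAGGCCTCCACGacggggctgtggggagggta
Calr: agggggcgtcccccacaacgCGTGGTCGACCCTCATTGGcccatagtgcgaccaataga

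Pdia6, a disulfide isomerase, had 322, 282, 258 and 387 CPM in Cpt2PparaDKO, against 64.6, 74.4, 119 and 65 CPM in Cpt2KO (log2 fold change 1.95, SE 0.21, adjusted p = 6.36e-07). Calr, calreticulin, which folds glycoproteins, had 1083, 916, 794 and 965 CPM in Cpt2PparaDKO, against 290.4, 272, 424 and 261 CPM in Cpt2KO (log2 fold change 1.59, SE 0.21, adjusted p = 8.95e-06). Hspa5, the chaperone BiP, chosen after its values were seen, had 1362, 1108, 967 and 2673 CPM in Cpt2PparaDKO, against 383, 352, 527 and 425 CPM in Cpt2KO (log2 fold change 1.86, SE 0.30, adjusted p = 0.000118). None of the 3 overlapped between the groups, and replicate 4 was the highest double-knockout library for Pdia6 and Hspa5. Dnajc3, a co-chaperone and inhibitor of the kinase PERK, rose by 0.90, Sdf2l1, a partner of BiP, by 3.57 and Manf by 2.37. Of the 22 genes, 11 had all Cpt2PparaDKO libraries above all Control libraries, against 15.8% of all genes tested, 2 had them below, against 19.3%, and 9 overlapped. Hspa5 averaged 1527 ± 781 CPM in Cpt2PparaDKO, 422 ± 76.2 in Cpt2KO and 651 ± 73.9 in Control (SD, n = 4 each). The members not called were Xbp1, a transcription factor of the response (0.22, adjusted p = 0.211), Dnajb9, a co-chaperone of BiP (0.31, adjusted p = 0.305), and Herpud1, of protein degradation (-0.17, adjusted p = 0.729), which turned positive under scaling by library size alone. Xbp1 and Dnajb9 passed the test under that scaling (adjusted p = 0.00746 and 0.0462).

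Of 27 genes of the integrated stress response, driven by the factor ATF4, 6 rose (22.2%, against 12.1% of all genes) and 2 fell (7.4%, against 12.2%). Those that fell were Fgf21 and the mitochondrial serine enzyme Shmt2 (-0.75), and scaling by library size alone gave 11 rises. Trib3, a pseudokinase induced by ATF4, had 112, 86, 57.2 and 174 CPM in Cpt2PparaDKO, against 36.4, 27.5, 15.5 and 24.6 CPM in Cpt2KO (log2 fold change 2.05, SE 0.38, adjusted p = 0.000706). Nupr1, a small stress regulator, rose by 2.29, Asns, asparagine synthetase, by 1.93, Cth, which makes cysteine, by 2.29, Ddit3, the factor CHOP, by 0.92, and Atf5, a related factor, by 0.55. Of these, Atf5 lost its call in 6 fits with 1 library left out, Ddit3 without Cpt2KO replicate 4 (adjusted p = 0.0547), Asns and Ddit3 without both libraries of the female pattern (adjusted p = 0.0507 and 0.0699), and Nupr1 when only the 8 libraries were fitted (adjusted p = 0.0853). Atf4 itself was not called (-0.10, adjusted p = 0.719) and turned positive under scaling by library size alone. Of 20 targets of p53, 4 rose and 0 fell, with 9 higher under scaling by library size alone and 2 lower without Cpt2KO replicate 4. Those that rose were Ccng1 (0.82), a cyclin, Gadd45a (2.05), of DNA damage response, Eda2r (2.19), a receptor of the TNF receptor family, and Trp53inp1 (1.85), a nuclear stress protein.

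Cholesterol synthesis genes were higher in the double knockout. Of 29 genes 19 rose and 2 fell, with a median of 0.77, and with 1 library left out 15 to 20 rose. Against Control, the list's median log2 difference was -0.17 in Cpt2PparaDKO and -0.88 in Cpt2KO. For 3 members all Cpt2PparaDKO libraries lay above all Control libraries, against 15.8% of all genes tested. For 10 they lay below, against 19.3%, and 16 overlapped. Sqle, squalene epoxidase, had 80.9, 68.2, 46.5 and 73.9 CPM in Cpt2PparaDKO, against 9.38, 11.5, 25.5 and 19.4 CPM in Cpt2KO (log2 fold change 2.03, SE 0.44, adjusted p = 0.00285). Soat2, which esterifies cholesterol for lipoproteins, had 123, 119, 99.8 and 109 CPM in Cpt2PparaDKO, against 42.9, 43.9, 43.9 and 39.6 CPM in Cpt2KO (log2 fold change 1.40, SE 0.19, adjusted p = 1.22e-05). Neither gene overlapped between the groups. Fdps, which makes farnesyl diphosphate, rose by 2.12, Msmo1, a sterol methyl oxidase, by 2.00 and Nsdhl, a sterol dehydrogenase, by 1.49. Those that fell were Hsd17b7 (-0.92), also a sterol reductase of the pathway, and Abcg8 (-0.74), a half-transporter of sterol export, whose call was lost without Cpt2PparaDKO replicate 3 or 4 or Cpt2KO replicate 1. Fatty acid synthesis was mixed, with 5 of 19 genes higher and 3 lower. Acly, which makes cytosolic acetyl-CoA, rose by 0.79, Elovl6, an elongase of palmitate, by 1.27, Scd2, a desaturase, by 0.98, Thrsp, an activator of lipogenesis, by 1.07, and Insig1, an anchor of sterol sensing, by 1.00. Me1, malic enzyme, fell by 1.30, Acacb, the acetyl-CoA carboxylase near mitochondria, fell by 1.16, and Elovl5, an elongase of polyunsaturated fatty acids, fell by 1.38. With Cpt2KO replicate 2 left out, the number of the list called higher was 3, and Scd2 lost its call (adjusted p = 0.0539). Insig1 lost its call in 8 alternatives, 5 of them with 1 library left out (adjusted p = 0.0742 to 0.123). Scaling by library size alone gave 8 of the list higher.

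Secreted plasma proteins of the acute phase were higher in the double knockout. Of 27 genes 15 rose and 0 fell, with a median of 0.92, and with 1 library left out 11 to 17 rose. Fga, the fibrinogen alpha chain, had 1759, 1771, 2033 and 1354 CPM in Cpt2PparaDKO, against 632, 512, 662 and 269 CPM in Cpt2KO (log2 fold change 1.74, SE 0.29, adjusted p = 0.000199). Hpx, hemopexin, which binds haem, had 5463, 5739.9, 6763 and 4541 CPM in Cpt2PparaDKO, against 2584, 2254, 1970.2 and 2159 CPM in Cpt2KO (log2 fold change 1.33, SE 0.17, adjusted p = 4.84e-06). Neither overlapped between the groups. Fgb and Fgg, the other fibrinogen chains, rose by 1.36 and 1.72, Hp, haptoglobin, by 1.01, Apcs, serum amyloid P, by 2.04, and Saa3, a serum amyloid A also made by macrophages, by 3.11. Fga averaged 1729 ± 281 CPM in Cpt2PparaDKO, 519 ± 179 in Cpt2KO and 2799.8 ± 365 in Control (SD, n = 4 each). For 5 of 27 members the Cpt2PparaDKO libraries all lay above Control, against 15.8% of all genes tested, for 8 all below, against 19.3%, and 14 overlapped. Among 35 complement and coagulation genes 14 rose and 3 fell. Mbl2, a mannose-binding lectin, had 178, 182, 208 and 161 CPM in Cpt2PparaDKO, against 47.2, 23, 50.2 and 37.8 CPM in Cpt2KO (log2 fold change 2.20, SE 0.25, adjusted p = 1.89e-06), and F11, coagulation factor XI, rose by 2.55. Those that fell were Pros1, the anticoagulant protein S (-0.94), F12, coagulation factor XII (-0.63), and C8g, a chain of complement C8 (-0.76), whose call was lost without Cpt2KO replicate 2 (adjusted p = 0.0682). The count of rises was 7 without Cpt2KO replicate 2 and 9 without Cpt2PparaDKO replicate 1, 8 in the fit of the 8 libraries and 22 under scaling by library size alone. Of 20 plasma carriers 7 rose and 2 fell. Trf, transferrin, had 9536, 10332, 12468 and 6973 CPM in Cpt2PparaDKO, against 3974, 4417, 4036 and 3975 CPM in Cpt2KO (log2 fold change 1.26, SE 0.18, adjusted p = 2.21e-05). Alb, albumin, fell by 0.69 with overlapping libraries (adjusted p = 0.0394) and Rbp4, the carrier of retinol, fell by 0.43. Both lost their calls under scaling by library size alone and in 5 fits for Alb and 4 for Rbp4 with 1 library left out. The count of plasma carriers that rose was 4 to 9 with 1 library left out.

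Several glutathione transferases of the mu and alpha classes, which conjugate electrophiles, rose. Gstm3 (chromosome 3, 107871012 to 107876599, minus strand), the largest named rise, had 264, 214, 137 and 682 CPM in Cpt2PparaDKO, against 4.52, 5.49, 3.48 and 7.73 CPM in Cpt2KO (log2 fold change 5.93, SE 0.58, adjusted p = 1.17e-06). Gsta4, which handles products of lipid peroxidation, had 44.9, 42.4, 48.6 and 44.2 CPM in Cpt2PparaDKO, against 8.03, 8.05, 6.46 and 7.38 CPM in Cpt2KO (log2 fold change 2.59, SE 0.18, adjusted p = 7.37e-10). Neither overlapped between the groups, and replicate 4 was highest for Gstm3 while Gsta4 was even across its group. Gstm1 rose by 1.94 and Gsta1 by 3.23; these genes have close copies whose reads may be shared. In the list of 26 NRF2 targets and glutathione enzymes 8 rose and 6 fell, and 2 fell under scaling by library size alone. Nqo1, a quinone reductase, rose by 0.98, whereas Hmox1, haem oxygenase, fell by 1.44 and Gpx1, a glutathione peroxidase, fell by 1.11. Hmox1 lost its call without any 1 of the Cpt2PparaDKO libraries and without Cpt2KO replicate 2 or 4 (adjusted p = 0.0552 to 0.123). Cytochromes P450 of families 1 to 3 gave 12 rises and 1 fall among 35. Cyp1a2, a pericentral enzyme, had 494, 412, 252 and 719 CPM in Cpt2PparaDKO, against 121, 50.7, 71.1 and 73.2 CPM in Cpt2KO (log2 fold change 2.57, SE 0.27, adjusted p = 9.32e-07), and Cyp2c29 rose by 2.30. The one that fell was Cyp2e1, an alcohol-oxidising enzyme of the same zone, with 4780.0, 4201, 2936 and 1536 CPM in Cpt2PparaDKO, against 7506, 6922, 9003 and 4905 CPM in Cpt2KO (log2 fold change -1.07, SE 0.27, adjusted p = 0.00524). Cyp3a11 was not called (-0.49, adjusted p = 0.282). When only the 8 libraries were fitted, 7 rose. Among 14 pericentral markers 6 rose and 1 fell, Cyp2e1, and among 12 periportal markers 6 rose and 1 fell, Hsd17b13, a droplet-bound dehydrogenase (-1.22). With 1 library left out, 2 to 5 periportal markers rose. Against Control, the median log2 difference of the P450 list was -0.773 in Cpt2PparaDKO and -1.356 in Cpt2KO. It was -0.515 and -1.584 for pericentral markers, and -1.069 and -1.842 for periportal markers. For 1 of the 35 P450 genes all Cpt2PparaDKO libraries lay above all Control libraries, against 15.8% of all genes tested. For 17 they lay below, against 19.3%, and 17 overlapped.

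Bile acid genes moved both ways, with 7 of 22 higher and 4 lower. Abcb11, the bile salt export pump, had 214, 155, 127 and 94.5 CPM in Cpt2PparaDKO, against 52.4, 11.5, 32.5 and 16.5 CPM in Cpt2KO (log2 fold change 2.39, SE 0.37, adjusted p = 0.000132). Nr0b2, the repressor SHP, rose by 3.07 with overlapping libraries (adjusted p = 0.0138), by 5.16 without Cpt2KO replicate 1, and lost its call when only the 8 libraries were fitted (adjusted p = 0.0613). Nr1h4, the bile acid receptor FXR, fell by 0.78 on the log2 scale. Cyp7a1, which catalyses the first step of the classical bile acid pathway, rose by 1.34 (adjusted p = 0.0295), and Cyp8b1, which sets the share of cholic acid, fell by 1.70 (adjusted p = 0.0329). Both lost their calls in 4 fits with 1 library left out. The count of rises was 4 to 8 and of falls 2 to 4 in those fits, and 3 rose in the fit of the 8 libraries. Abcb11 averaged 148 CPM in Cpt2PparaDKO and 360 in Control, and Cyp7a1 38 and 179 CPM. Against Control, the list's median log2 difference was -1.15 in Cpt2PparaDKO and -1.18 in Cpt2KO. For 2 of the 22 genes all Cpt2PparaDKO libraries lay above all Control libraries, against 15.8% of all genes tested. For 14 they lay below, against 19.3%, and 6 overlapped.

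Amino acid breakdown gave 9 rises and 6 falls among 33 genes, with 3 falls without both libraries of the female pattern and 3 under scaling by library size alone. Cbs, cystathionine beta-synthase, had 418, 453, 613 and 271 CPM in Cpt2PparaDKO, against 132, 125, 207 and 147 CPM in Cpt2KO (log2 fold change 1.52, SE 0.20, adjusted p = 8.92e-06), and did not overlap. Cth, the next enzyme, had 377, 445, 707 and 149 CPM in Cpt2PparaDKO, against 117, 75.4, 98.1 and 53 CPM in Cpt2KO (log2 fold change 2.29, SE 0.40, adjusted p = 0.000415). Hal, histidine ammonia lyase, rose by 1.83, a call lost in 4 fits with 1 library left out (adjusted p = 0.0509 to 0.0843). Against Control, the list's median log2 difference was -1.13 in Cpt2PparaDKO and -1.25 in Cpt2KO. For 27 of the 33 genes all Cpt2PparaDKO libraries lay below all Control libraries, against 19.3% of all genes tested. For 0 they lay above, against 15.8%, and 6 overlapped. Of 13 glycogen genes 4 rose and 2 fell, and 8 rose under scaling by library size alone. Ppp1r3c, which targets protein phosphatase 1 to glycogen, had 21.1, 26.1, 34.5 and 7.41 CPM in Cpt2PparaDKO, against 2.36, 0.48, 1.03 and 2.65 CPM in Cpt2KO (log2 fold change 3.79, SE 0.71, adjusted p = 0.000946), and its liver relative Ppp1r3b rose by 1.76. Those that fell were Pgm1, a phosphoglucomutase (-0.70), and Ppp1r3g, another targeting subunit (-2.48), whose libraries overlapped and whose call was lost in 5 fits with 1 library left out. Ppp1r3c and Ppp1r3b did not overlap between the groups. Ppp1r3c averaged 22.3 CPM in Cpt2PparaDKO and 65.6 in Control, and Ppp1r3b 54 and 206 CPM. Of the 13 glycogen genes, 5 had all Cpt2PparaDKO libraries above all Control libraries, against 15.8% of all genes tested. Another 5 had them below, against 19.3%, and 3 overlapped.

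Most markers of recruited and lipid-associated macrophages rose. Of 15 recruited and lipid-associated macrophage markers 11 rose and 0 fell, with a median of 1.46. Mmp12 (chromosome 9, 7344381 to 7369499, plus strand), macrophage elastase, had 22.1, 25, 29.3 and 18.5 CPM in Cpt2PparaDKO, against 0.877, 0.426, 0.271 and 0.231 CPM in Cpt2KO (log2 fold change 5.74, SE 0.43, adjusted p = 4.04e-09). Chil3, a chitinase-like protein of monocytes and activated macrophages, had 3.58, 3.66, 3.93 and 5.24 CPM in Cpt2PparaDKO, against 0.0675, 0.213, 0.217 and 0.173 CPM in Cpt2KO (log2 fold change 4.53, SE 0.69, adjusted p = 5.72e-05). Neither overlapped between the groups. Ccr2, the receptor of recruited monocytes, rose by 1.83, Cx3cr1, another chemokine receptor, by 2.67, Itgax, the integrin CD11c, by 1.64, Trem2, a lipid-sensing receptor, by 1.75, Cd68, a lysosomal protein, by 0.90, and Spp1, osteopontin, by 1.11. Cd68 lost its call without both libraries of the female pattern (adjusted p = 0.0945), and Itgax without Cpt2PparaDKO replicate 3 (adjusted p = 0.0501). Gpnmb, a marker of lipid-laden macrophages, was at 39.1 ± 10.9 CPM in Cpt2PparaDKO, 38 ± 13.7 in Cpt2KO and 0.249 ± 0.257 in Control (SD, n = 4 each), and was not called against Cpt2KO (adjusted p = 0.931). The summed level of the list was 296 to 371 CPM in Cpt2PparaDKO, 159 to 228 in Cpt2KO and 73.5 to 99.1 in Control. For 11 of the 15 all Cpt2PparaDKO libraries lay above all Control libraries, against 15.8% of all genes tested. For 1 they lay below, against 19.3%, and 3 overlapped. Spp1 averaged 11.2 FPKM in Cpt2PparaDKO, 5.19 in Cpt2KO and 14.2 in Control. Of 13 Kupffer cell markers 0 rose and 0 fell in edgeR, with 1 at an unadjusted p under 0.05 and 1 called lower by DESeq2. The number called higher was 4 without Cpt2KO replicate 3, 2 without both libraries of the female pattern and 1 under scaling by library size alone. The summed level of the Kupffer cell markers was 521 to 619.5 CPM in Cpt2PparaDKO and 266 to 726 in Cpt2KO. Clec4f, which defines Kupffer cells in mice, had 108, 96.7, 105 and 92.4 CPM in Cpt2PparaDKO, against 106, 79.8, 101 and 53.8 CPM in Cpt2KO (log2 fold change 0.24, adjusted p = 0.436). The part of macrophages in the levels of Lpl, Saa3 and Lcn2 was not tested.

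Of 16 markers of sinusoidal endothelium 0 rose and 0 fell in edgeR, with 1 at an unadjusted p under 0.05, 0 called by DESeq2 and 3 higher under scaling by library size alone. Of 11 lymphocyte markers 0 rose and 0 fell in edgeR, with 2 at an unadjusted p under 0.05, 2 called higher by DESeq2 and 2 higher without Cpt2KO replicate 3. Of 18 markers of stellate cells and matrix 7 rose and 0 fell, and 4 rose without Cpt2KO replicate 2. Col1a1, a chain of type I collagen, had 9.39, 7.31, 8.04 and 6.71 CPM in Cpt2PparaDKO, against 2.63, 1.6, 2.28 and 2.94 CPM in Cpt2KO (log2 fold change 1.74, SE 0.28, adjusted p = 9.79e-05). Of 9 bile duct markers 1 rose, Spp1, and 1 fell, Krt23 (-3.83), a keratin also induced in fatty hepatocytes, shares close to those over all genes. Without Cpt2PparaDKO replicate 4 the number that rose was 3, and the list's median was 0.04, against 1.11 with it; without Cpt2KO replicate 1 or 3, 2 rose. Of 3 neutrophil markers 2 rose, S100a9 (1.67) and Csf3r (0.91), of which 0 kept the call without Cpt2KO replicate 2. Of 29 genes stimulated by interferon or of antigen presentation 17 rose and 1 fell, with a median of 0.76. Their summed level did not rise, at 2509 to 2667 CPM in Cpt2PparaDKO, 2540 to 3125 in Cpt2KO and 3826 to 4608 in Control. For 1 member all Cpt2PparaDKO libraries lay above all Control libraries, against 15.8% of all genes tested. For 7 they lay below, against 19.3%, and 21 overlapped. Isg15, a ubiquitin-like protein, had 5.27, 5.84, 7.11 and 5.28 CPM in Cpt2PparaDKO, against 1.55, 1.81, 2.71 and 1.56 CPM in Cpt2KO (log2 fold change 1.61, SE 0.26, adjusted p = 0.000102), and did not overlap. Irf7, a transcription factor, rose by 1.31, and Rsad2, the antiviral protein viperin, by 1.30. Isg15 averaged 5.87 ± 0.864 CPM in Cpt2PparaDKO and 8.18 ± 1.96 CPM in Control (SD, n = 4 each). The member that fell was H2-K1, a class I heavy chain with close copies (-0.55, adjusted p = 0.00567), chosen after its values were seen; its call was lost under scaling by library size alone (adjusted p = 0.083).

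**Figure D5:**
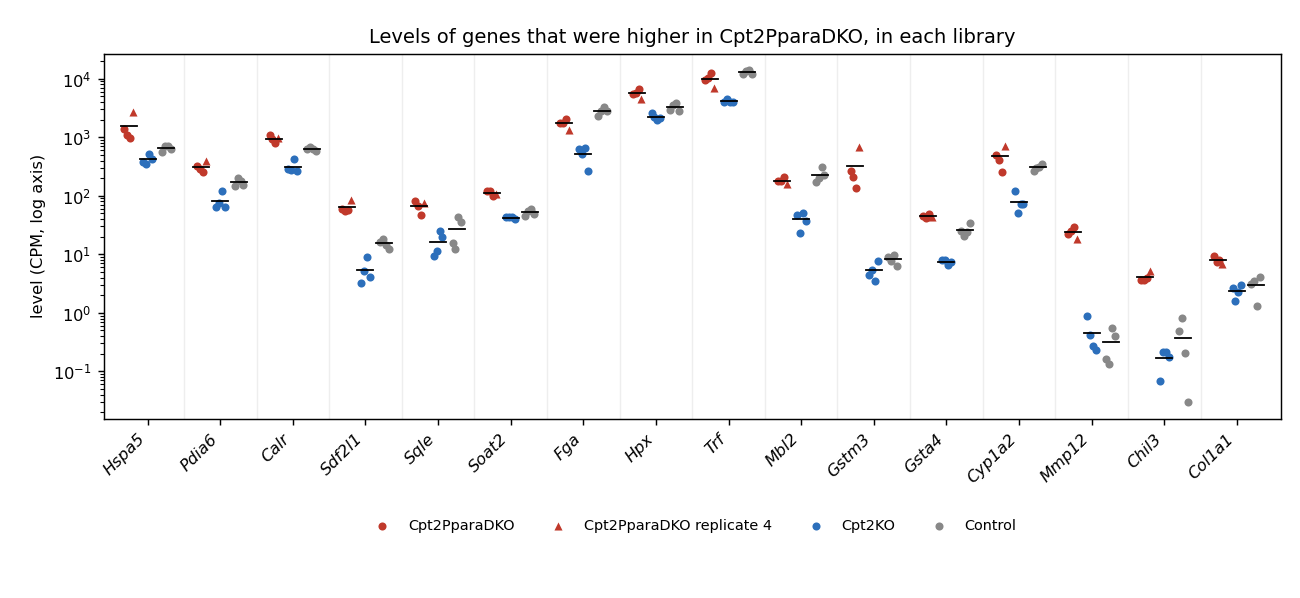
Level in each library (CPM, log axis) of 16 genes higher in Cpt2PparaDKO (left) than in Cpt2KO (middle), with Control on the right, the group mean as a line and Cpt2PparaDKO replicate 4 as a triangle; a Chil3 value of 0 in Control is drawn at 0.03 CPM. Gstm3 and Hspa5 are highest in replicate 4, while Gsta4 and Soat2 are even across the 4 double-knockout libraries.

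The largest rises by the naming rule included Slc13a5, the plasma membrane citrate transporter, with 12.4, 11.7, 10.1 and 4.73 CPM in Cpt2PparaDKO, against 0.202, 0.213, 0.652 and 0.173 CPM in Cpt2KO (log2 fold change 4.92, SE 0.47, adjusted p = 1.05e-07). Serpina7, thyroxine-binding globulin, had 59.9, 45.8, 40.3 and 223 CPM in Cpt2PparaDKO, against 1.62, 2.93, 7.11 and 2.94 CPM in Cpt2KO (log2 fold change 4.64, SE 0.66, adjusted p = 8.04e-05). Lcn2, lipocalin 2, rose by 3.69, and Cyp2c70, a bile acid hydroxylase of mice, by 3.49. For Serpina7, Lcn2 and Cyp2c70 replicate 4 was the highest double-knockout library. Adgrf1, an adhesion receptor, rose by 4.61, Slpi, a secreted protease inhibitor, by 3.43, Prelid2 by 3.35, and Sdr9c7, a short-chain dehydrogenase, by 3.27. Cyp2c70 averaged 51.6 CPM in Cpt2PparaDKO, 4.57 in Cpt2KO and 41.1 in Control, and Sdr9c7 averaged 46.8, 4.89 and 43.3 CPM. For the other rises of this paragraph the Control mean was further below that of Cpt2PparaDKO. It was 2.48 CPM for Slc13a5, 3.08 for Serpina7, 9.98 for Lcn2, 3.07 for Adgrf1, 0.579 for Slpi and 0.233 for Prelid2. The largest falls included Retsat, a retinol saturase, with 146, 218, 211 and 102 CPM in Cpt2PparaDKO, against 4713, 4768, 4062 and 4315 CPM in Cpt2KO (log2 fold change -4.72, SE 0.22, adjusted p = 3.82e-12). Adra2a, an adrenergic receptor, had 0.188, 0.267, 1.45 and 0.0776 CPM in Cpt2PparaDKO, against 23.3, 10.9, 26.7 and 5.36 CPM in Cpt2KO (log2 fold change -5.16, SE 0.74, adjusted p = 5.99e-05). Rab30, a small GTPase of the Golgi, had 9.62, 15.2, 8.04 and 10.9 CPM in Cpt2PparaDKO, against 181, 293, 152 and 263 CPM in Cpt2KO (log2 fold change -4.35, SE 0.36, adjusted p = 7.72e-08). Serinc2, of the serine incorporator family, fell by 4.63, and Pnldc1, an exonuclease known from germ cells, fell by 5.05. In Control, Adra2a averaged 0.0338 CPM, below its Cpt2PparaDKO mean of 0.496 CPM. Control means were above those of Cpt2PparaDKO for Retsat (1574 CPM), Rab30 (31.6 CPM), Serinc2 (27.0 CPM) and Pnldc1 (5.31 CPM). None of the genes of this group overlapped between Cpt2PparaDKO and Cpt2KO, which the naming rule required.

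The authors' deposited table of the same comparison lists 26567 genes, 3212 of them at an adjusted p under 0.05. Of these, 1626 have a log2 fold change above 0 and 1586 below 0 in the authors' deposited table. Of the genes called here, 2941 were also called in the authors' deposited table, and 0 of those had the opposite sign.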

How the data were processed

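The authors deposited whole-number counts per gene, not normalized, and FPKM values, per the file headers. The build was GRCm39 (mm39) and the aligner HISAT2, per the submitters' processing notes. The aligner version, counting tool, strand setting and annotation release were not given in the sources used here, so overlapping and antisense genes cannot be told apart. The authors also deposited a table of log2 fold changes and adjusted p-values for this comparison, per the file header, used only to compare calls.

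Of 56748 genes, 31344 had a count in any library, and filterByExpr (minimum count 10) kept 15669. Rows that name no gene numbered 0. One edgeR quasi-likelihood model (edgeR 4.0.16, R 4.3.3, TMM, robust) with 1 coefficient per group took in all 20 libraries, contrast Cpt2PparaDKO minus Cpt2KO. Tests were two-sided, with Benjamini-Hochberg adjustment over all genes tested, and the threshold for a call was 0.05. Every adjusted p in the text comes from this test unless another is named. Each SE comes from the log2 fold change and its F statistic. The script was tested on simulated data. FPKM served only to compare receptors per length and to place Spp1 and Ucp3 against Control. Alternatives were DESeq2 1.42.0, other scalings, filters and sample sets, thinned counts and each library left out.

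Members and gene lists were chosen with earlier results of these data known. Genes named are the targeted genes, the 12 largest rises and falls (called, protein-coding, without overlap, averaging 5 CPM or more), up to 10 called and 5 uncalled members of each list in order of adjusted p or level, and a fixed set. Hspa5, H2-K1, Acadsb, Acox2, Fabp5, Acsl4, Acsm1, Abcg8, Igfbp3, Hmox1 and C8g fall outside it and were chosen after their values were seen. The interval for Fabp3 covers counting error only. Some list members are counted but not reported singly here. Close paralogs (Cyp4a, Acot, Gst, Cyp2c, Saa) may share reads.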

Additional observations from a re-analysis of the deposited data

Results flagged for a closer look

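The total count of Cpt2PparaDKO replicate 1, 36452673, stood apart from the other 3 of its group. Among 398 sets of 4 libraries checked, 43 had 1 library whose gap to its nearest neighbour exceeded Dixon's 95% critical value, which chance passes in about 1 in 20 sets. The sets are genes of the same libraries and are not independent. All values below are CPM of the library that stood apart. In Cpt2PparaDKO replicate 4, Acot2 at 118, Slc16a1 at 70.2, Acot5 at 2.41, Igfbp1 at 1950 and Angptl4 at 172 CPM lay above the other 3 libraries. Also above them in that library were Ppard at 16.9, Sdf2l1 at 83.5, Atf4 at 182 and Lcn2 at 202 CPM. Also above them in that library were Serpina7 at 223, Gsta1 at 85.8, Ppp1r3b at 67.8 and Cd68 at 112 CPM. Also above them in that library were Cyp2c70 at 131, Trp53inp1 at 398 and Nqo1 at 43.8 CPM. In Cpt2PparaDKO replicate 4, Cpt1a at 468, Hadhb at 102, Acat1 at 102 and Scp2 at 918 CPM lay below the other 3 libraries. Also below them in that library were Bdh1 at 91.4, Mogat1 at 0.0776, Rxra at 293, Sdr9c7 at 12.5 and Acadsb at 49.5 CPM. Also below them in that library was Insig1 at 39.9 CPM. Cpt2KO replicate 1 stood apart for Acsl1 at 2980 and Nr0b2 at 3.98 CPM above its group. Cpt2KO replicate 2 stood apart for Trf at 4420, F12 at 989 and Rbp4 at 5780 CPM above its group and Dnajc3 at 171, Cyp4f14 at 13.4 and S100a9 at 0.266 CPM below its group. Cpt2KO replicate 3 stood apart for Esrrg at 6.68 and Slc13a5 at 0.652 CPM above its group. Cpt2KO replicate 4 stood apart for Lepr at 88.8, Elovl6 at 6.29, Fgg at 162 and Itgax at 0.288 CPM below its group. Cpt2PparaDKO replicate 3 stood apart for Adra2a at 1.45 CPM above its group and Elovl6 at 25.6 CPM below its group. Every count of list members called higher or lower was also made without Cpt2PparaDKO replicate 4. Counts of members without overlap between groups were made only with all 4 libraries of each group.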

How the results depend on the processing

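The number of genes called, 3822 with 1903 higher and 1919 lower, stayed within 1.5 times under DESeq2 (4303), DESeq2 size factors in edgeR (3831), no filter on low counts (3217), a mean of at least 1 CPM (3579), sex pattern as a factor (4048), removal of both libraries of the female pattern (4128) and thinning to the smallest library (3628). With 1 library left out it ran from 2997 to 4075, with 1389 to 2074 higher and 1583 to 2001 lower. Fitting only the 8 libraries gave 2495 calls, 1269 higher and 1226 lower, and scaling by library size alone 4164 higher and 997 lower. A minimum absolute log2 fold change of 1 left 1692 calls, 988 higher and 704 lower. Of 198 named genes 179 were called. The minimum log2 fold change was not among the alternatives applied to single genes. In the others, 147 kept the call wherever they were tested, 32 lost it in at least 1 and 0 changed sign. Of the 19 not called, 6 gained a call in at least 1: Scp2, Acot5, Gdf15, Ndufs8 (without Cpt2PparaDKO replicate 3, adjusted p = 0.045), Xbp1 and Dnajb9. Without Cpt2PparaDKO replicate 4, Lcn2 was at 2.37 and C8g at -0.51, against 3.69 and -0.76 with it. Losses in the fit of the 8 libraries that the report does not name befell mt-Nd1, Alb, Cyp8b1, Acadsb, Acox2, Acsl4, Acot11, Insig1, Abcg8, Atf5, Csf3r, C8g and Rbp4.

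The labels do not say whether the replicate numbers pair the libraries. Same-numbered libraries had correlations of 0.29, -0.06, 0.01 and -0.08 between their deviations from the group means. Differently numbered libraries ran from -0.29 to 0.21. So few values cannot decide whether the libraries are paired. With the replicate number as a replicate block 3642 genes were called, 1811 higher and 1831 lower, 3546 of them shared.

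Changes of sign occurred only among named genes that were not called, and the cause was not tested. Scaling by library size alone gave log2 fold changes of 0.18 for Ppard, 0.046 for mt-Co1, 0.014 for Ndufs8, 0.056 for Cox7a2, 0.12 for Herpud1 and 0.19 for Atf4. Without both libraries of the female pattern the values were -0.15 for Plin3, -0.033 for Abhd5, -0.0093 for Dnajb9 and -0.18 for Gpnmb, and thinning gave -0.013 for Abhd5. With 1 library left out, the values ran from -4.92 to 0.27 for Acot5, -0.066 to 0.17 for Plin3, -0.021 to 0.11 for Abhd5, -0.25 to 0.059 for Ppard, -0.28 to 0.050 for Atf4 and -0.078 to 0.31 for Gpnmb. Acot5 was at 0 to 0.0471 CPM in 3 Cpt2PparaDKO libraries and at 2.41 CPM in replicate 4.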

Other observations

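Genes near the targeted loci were counted by position (GRCm39). Within 5 Mb of Ppara on chromosome 15, 39 of 125 genes tested were called (31.2%), 17 higher and 22 lower. Within 5 Mb of Cpt2 on chromosome 4, 9 of 59 were called (15.3%), 6 higher and 3 lower. Over all genes tested the share was 24.4%. Whether these shares differ from it was not tested.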
